A study of Medicago truncatula and Hordeum vulgare with 90 samples.

Results

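Strigolactones are carotenoid-derived hormones that restrain shoot branching and that roots release into the soil, where they stimulate the hyphae of arbuscular mycorrhizal fungi. D27 isomerises β-carotene, CCD7 and CCD8 are dioxygenases that cleave the product in succession to carlactone, and MAX1 is a cytochrome P450 that oxidises carlactone, as shown mainly in Arabidopsis, rice and pea. The pathway is known to be switched on in roots that lack phosphate. The GRAS transcription factors NSP1 and NSP2 are known from Medicago truncatula and rice as regulators of D27.

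Reported here are the 5 barley genes that the study names as strigolactone biosynthesis genes, out of 87541 gene identifiers in the barley count table. They are D27 (chr7Hg0781091), CCD7 (chr2Hg0201911), a pair of CCD8 genes (chr3Hg0309501 and chr3Hg0246861) and MAX1 (chr3Hg0246881). By their identifiers they lie on chromosomes 7H, 2H and 3H. They were chosen by measured values of these libraries. The study drew them from genes that were higher in starved than in replete wild-type roots, depended on NSP1 or NSP2, and were higher with MtNSP2 overexpressed in replete roots. It shows the mutants for them under nutrient depletion, read here as lack of both nutrients. It does not state whether mutants lacking a single nutrient entered the choice as well. Every comparison with a wild-type group, with MtNSP2ox or with a mutant lacking both nutrients is therefore given as a description without a test. Tests are kept for comparisons among mutant groups that were replete or lacked 1 nutrient, and hold as far as those groups took no part in the choice. Neither an annotation nor a sequence of this barley assembly was used, so positions, gene lengths and coding sequences are not given, and levels are compared within a gene and not between genes.

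The data were RNA-seq counts from whole roots of Hordeum vulgare cultivar Golden Promise (GP) grown for 21 days in sharp sand, in 14 groups of 3 libraries, 42 in all. Wild-type GP and the mutants nsp1 (nsp1-1) and nsp2 (nsp2-1), both in the GP background, were grown with phosphate and nitrate (+P+N), without nitrate (+P-N), without phosphate (-P+N) and without both (-P-N). The overexpression lines MtNSP1ox (pZmUBI:MtNSP1-FLAG) and MtNSP2ox (pOsUBI3:MtNSP2-FLAG) carry a Medicago gene under a cereal ubiquitin promoter in GP and were grown at +P+N only. Each mutant was made with CRISPR/Cas9 and is 1 allele, and barley has further NSP1-like genes that an nsp1 plant keeps. The labels do not say whether the libraries of a group came from separate plants, so that p-values measure the spread between these libraries.

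Total counts per library ranged from 64919199 to 213268063. A set of 1374 genes whose level ran opposite to the normalisation factor took 62.5% to 92.8% of the counts. This left 15287058 to 57670512 counts for all other genes, and none of the 5 genes was in that set. Levels are CPM, counts relative to the library total after scaling by TMM factors, so that 3 counts correspond to between 0.012 and 0.0418 CPM depending on the library. All 5 genes passed the filter on low counts that 46523 genes passed, CCD8 chr3Hg0246861 through the groups where it is high. The level of the mutated genes and markers of root or shoot were not analysed here, since no table used here pairs barley identifiers with names. In whole roots, fewer cells of a type and less RNA per cell cannot be told apart.

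In replete wild-type roots the 5 genes were low, and each was higher in all 9 starved wild-type libraries than in any of the 3 replete ones. These values chose the genes and carry no test. D27 measured 0.382, 0.327 and 0.329 CPM in GP at +P+N. It measured 4.8, 3.86 and 4.21 CPM at +P-N, 3.91, 3.62 and 4.03 CPM at -P+N and 4.28, 4.29 and 3.98 CPM at -P-N. The 3 starved groups were 12.4, 11.1 and 12.1 times the replete mean, and they overlapped one another, so that lack of either nutrient brought D27 to about the level seen without both.

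CCD7 had the smallest ratios of starved to replete levels among the 5. It measured 0.764, 0.67 and 0.695 CPM in GP at +P+N, 2.05, 1.6 and 1.93 CPM at +P-N, 1.51, 1.74 and 2 CPM at -P+N and 2.48, 2.54 and 2.45 CPM at -P-N. The ratios to the replete mean were 2.62, 2.46 and 3.51. The 3 libraries without both nutrients lay above all 6 with single starvation, which held for no other gene of the 5.

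The CCD8 genes ranked the regimes differently. CCD8 chr3Hg0309501 measured 0.215, 0.0735 and 0.128 CPM in GP at +P+N, 14.7, 11.4 and 13.9 CPM at +P-N, 8.69, 6.8 and 7.74 CPM at -P+N and 9.77, 11 and 9.06 CPM at -P-N. It was highest without nitrate, lowest of the starved groups without phosphate, and the 3 starved groups did not overlap. The means were 96, 55.7 and 71.5 times the replete mean.

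CCD8 chr3Hg0246861 was highest where phosphate alone was missing. In GP at +P+N it had 1 count in the 3 libraries together. It measured 0.942, 0.465 and 0.615 CPM at +P-N, 3.79, 2.63 and 3.4 CPM at -P+N and 0.855, 0.803 and 0.474 CPM at -P-N, so that the -P+N libraries lay 4.86 times above the +P-N mean with no overlap, while +P-N and -P-N overlapped. Against the single replete count the ratio at -P+N was 1252, with an exact 95% counting interval of 224 to 49480.0.

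MAX1 was nearly level across the starved regimes. It measured 0.627, 0.613 and 0.646 CPM in GP at +P+N, 25.9, 21.4 and 24.4 CPM at +P-N, 26.6, 25.8 and 26.5 CPM at -P+N and 25.1, 26.6 and 19.5 CPM at -P-N. The starved means were 38, 41.8 and 37.7 times the replete mean, and the 3 starved groups overlapped.

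**Figure D1:**
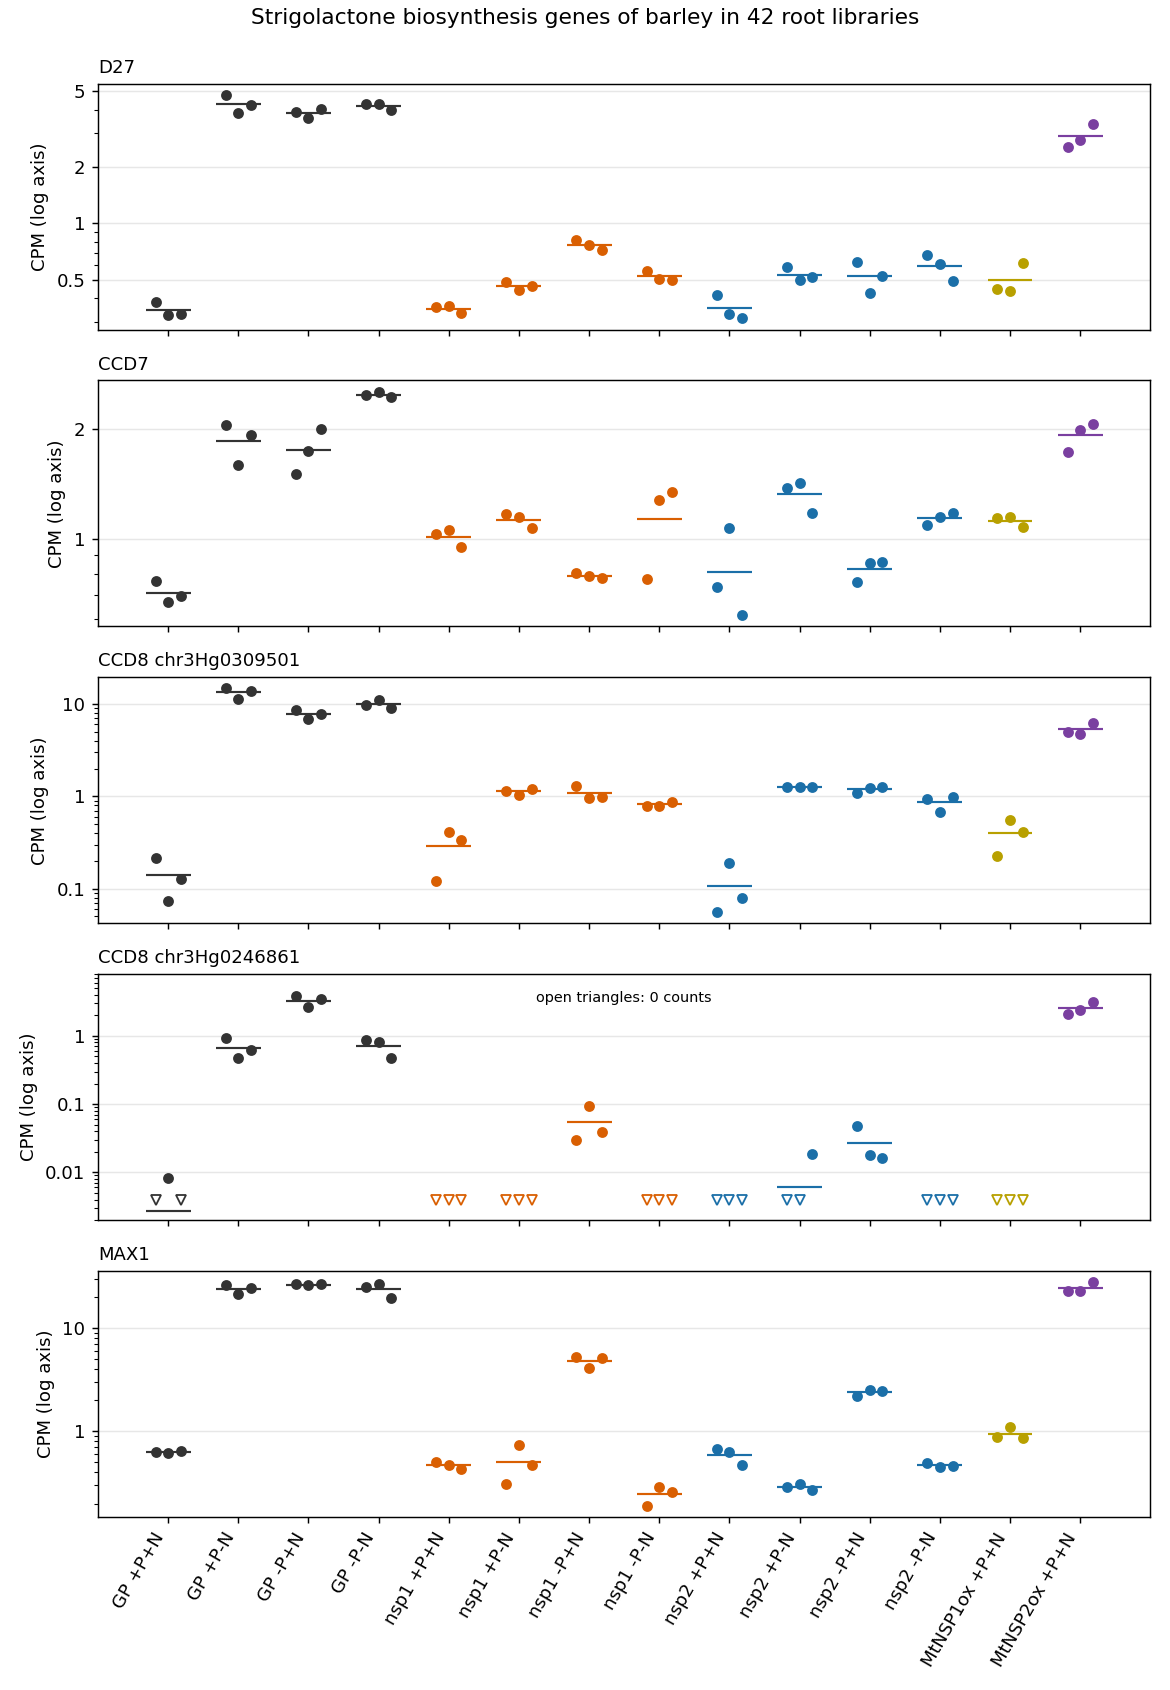
Level of each gene in CPM on a log axis in the 14 groups, with 1 point per library, a bar at the mean of 3 libraries, and open triangles for libraries with 0 counts. The starved GP groups and MtNSP2ox stand above the other groups in every panel, and MAX1 in nsp1 and nsp2 at -P+N lies between them and the rest.

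At full nutrition the mutants lay near the wild type. The wild-type libraries at +P+N had to be low for a gene to be chosen, so these values carry no test. CCD7 measured 1.03, 1.06 and 0.947 CPM in nsp1, above all GP libraries (log2 fold change 0.54, SE 0.14). D27 measured 0.359, 0.364 and 0.335 CPM, within the GP range (log2 fold change 0.06, SE 0.21). MAX1 measured 0.502, 0.471 and 0.43 CPM, below all GP libraries (log2 fold change -0.40, SE 0.17). CCD8 chr3Hg0309501 measured 0.12, 0.407 and 0.335 CPM, overlapping GP (log2 fold change 1.12, SE 0.47). CCD8 chr3Hg0246861 had no count in any of the 6 mutant libraries at +P+N.

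In replete nsp2 roots D27 measured 0.418, 0.332 and 0.314 CPM, CCD7 0.739, 1.07 and 0.616 CPM and MAX1 0.669, 0.625 and 0.471 CPM, and each overlapped the GP libraries. CCD8 chr3Hg0309501 measured 0.0558, 0.19 and 0.0784 CPM and overlapped them as well. Replicate 2 of nsp2 was the highest of its group for CCD7 and for CCD8 chr3Hg0309501. This library also differed from its fellows in composition. The set of 1374 genes took 72.9% of its counts, against 87.0% in replicate 1 and 87.1% in replicate 3. Its chi-square per gene was 201.6 against replicate 1 and 228.5 against replicate 3, where those 2 differed by 7.77.

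Without nitrate the mutants stood apart from GP for every gene. The wild-type libraries at +P-N had to be high for a gene to be chosen, so the distance to them is a description with no test. The median log2 fold change of the 5 against GP was -3.57 in nsp1 and -3.40 in nsp2, beside -0.01 and 0.00 over all genes. TMM scaling holds the median over all genes near no change, here and in the other comparisons, so it is no background test. For none of the 5 did a mutant library at +P-N overlap a GP library. How many of all genes lacked overlap was not counted, here or in the other comparisons with GP.

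Of the 4 genes with counts in every mutant library, MAX1 was lowest relative to GP. It measured 0.309, 0.741 and 0.477 CPM in nsp1 (log2 fold change -5.56, SE 0.20) and 0.292, 0.306 and 0.27 CPM in nsp2 (log2 fold change -6.35, SE 0.11), below every replete GP library except for nsp1 replicate 2. D27, at the entry to the pathway, measured 0.486, 0.445 and 0.467 CPM in nsp1 (log2 fold change -3.20, SE 0.11) and 0.584, 0.5 and 0.52 CPM in nsp2 (log2 fold change -2.99, SE 0.11). CCD8 chr3Hg0309501 measured 1.14, 1.04 and 1.2 CPM in nsp1 (log2 fold change -3.57, SE 0.11) and 1.27, 1.25 and 1.25 CPM in nsp2 (log2 fold change -3.40, SE 0.11), and the 3 nsp2 libraries were almost identical.

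CCD7 differed least. It measured 1.17, 1.15 and 1.07 CPM in nsp1 (log2 fold change -0.72, SE 0.11) and 1.38, 1.42 and 1.18 CPM in nsp2 (log2 fold change -0.48, SE 0.12). CCD8 chr3Hg0246861 had 0 counts in all 3 nsp1 libraries, so that it was at least 26-fold lower than in GP when each nsp1 library is set at 3 counts. In nsp2 it had 0, 0 and 2 counts, 102 times lower with an exact 95% counting interval of 27.9 to 842.

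Without phosphate alone the mutants again lay below GP with no overlap, and MAX1 lay less far below GP than it did without nitrate. GP at -P+N was used to choose the genes too, and no test is given. The median log2 fold change of the 5 against GP was -2.41 in nsp1 and -2.85 in nsp2, beside 0.00 and -0.01 over all genes.

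MAX1 at -P+N measured 5.28, 4.08 and 5.14 CPM in nsp1 (log2 fold change -2.41, SE 0.10) and 2.22, 2.49 and 2.44 CPM in nsp2 (log2 fold change -3.44, SE 0.07). These means were 5.44 and 11 times below GP, where the ratios at +P-N were 46.9 and 82.6, and the difference between these ratios was not tested. D27 measured 0.813, 0.764 and 0.72 CPM in nsp1 (log2 fold change -2.29, SE 0.08) and 0.621, 0.425 and 0.525 CPM in nsp2 (log2 fold change -2.85, SE 0.12).

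CCD8 chr3Hg0309501 measured 1.29, 0.95 and 0.986 CPM in nsp1 (log2 fold change -2.81, SE 0.13) and 1.08, 1.24 and 1.26 CPM in nsp2 (log2 fold change -2.66, SE 0.10). CCD7 measured 0.803, 0.789 and 0.779 CPM in nsp1 (log2 fold change -1.12, SE 0.12) and 0.762, 0.86 and 0.861 CPM in nsp2 (log2 fold change -1.06, SE 0.13), close to its level in replete GP. CCD8 chr3Hg0246861 had 3, 11 and 4 counts in nsp1 and 5, 2 and 2 counts in nsp2, where GP had 422, 480 and 849. It was the gene with the largest ratio to GP in this regime (log2 fold change -5.80, SE 0.27 in nsp1, and log2 fold change -6.88, SE 0.28 in nsp2).

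**Figure D2:**
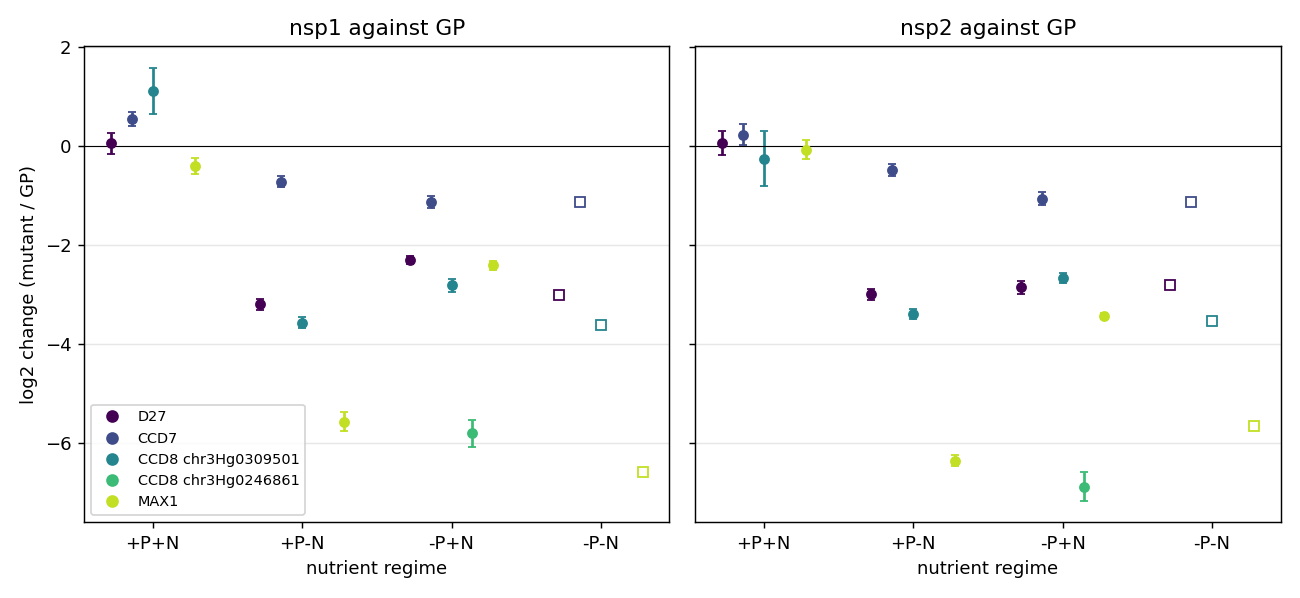
Log2 change of each gene in nsp1 (left) and nsp2 (right) against GP at each nutrient regime. Filled points are fitted values with their standard errors (3 libraries against 3), open squares at -P-N are ratios of group means, and CCD8 chr3Hg0246861 is drawn only at -P+N because the mutants had 0 to 2 counts elsewhere. GP was used to choose the genes at every regime, and the points are a description. All fitted points at +P-N and -P+N lie below 0, and MAX1 lies closer to 0 under -P+N than under +P-N.

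The first tested question was whether the genes still respond to a single missing nutrient within a mutant. With nutrient depletion in the study read as lack of both nutrients, none of these libraries is among those that it shows for the genes. In nsp1, going from +P+N to +P-N, 1 of the 5 was called higher and none lower, against 23.4% of all genes called higher and 50.3% in either direction. The median log2 fold change of the 5 was 0.11 beside 0.00 over all genes, a median that the scaling holds near no change. In nsp2 at +P-N, 2 were called higher and 1 lower, against 19.7% of all genes called higher, 21.8% called lower and 41.5% in all, with a median of 0.67 beside 0.01. In nsp1 at -P+N, 4 were called higher, against 20.2% of all genes called higher and 38.0% in either direction. In nsp2 at -P+N, 3 were called higher, against 17.6% called higher and 33.3% in either direction. Both counts at -P+N include CCD8 chr3Hg0246861, which passed the filter only through starved GP and MtNSP2ox libraries. The medians at -P+N were 1.86 in nsp1 and 2.00 in nsp2, or 1.11 and 0.56 with CCD8 chr3Hg0246861 set against 3 counts per library, beside 0.01 and -0.03 over all genes.

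CCD8 chr3Hg0309501 rose in both mutants under either single starvation. In nsp1 it rose from 0.287 ± 0.149 CPM (mean ± SD, n = 3) at +P+N to 1.13 ± 0.0829 CPM at +P-N (log2 fold change 1.89, SE 0.26, edgeR adjusted p = 2.6e-05) and to 1.07 ± 0.186 CPM at -P+N (log2 fold change 1.86, SE 0.28, edgeR adjusted p = 9.8e-05). In nsp2 it rose from 0.108 ± 0.0716 CPM to 1.26 ± 0.0129 CPM (log2 fold change 3.42, SE 0.32, edgeR adjusted p = 3.6e-05) and to 1.2 ± 0.0989 CPM (log2 fold change 3.35, SE 0.32, edgeR adjusted p = 5.2e-05). The replete libraries held 10, 38 and 35 counts in nsp1 and 4, 20 and 7 in nsp2. The size of the rise therefore rests on few counts, most of all in nsp2. All 12 mutant libraries under a single starvation lay above the 6 replete ones and below every starved GP library.

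MAX1 rose in both mutants when phosphate was missing. When nitrate was missing it fell in nsp2 and did not pass the test in nsp1. In nsp1 it was 0.468 ± 0.036 CPM at +P+N, 0.509 ± 0.218 CPM at +P-N (log2 fold change 0.07, SE 0.28, edgeR adjusted p = 0.86) and 4.83 ± 0.653 CPM at -P+N (log2 fold change 3.36, SE 0.14, edgeR adjusted p = 1.3e-10). In nsp2 it was 0.588 ± 0.104 CPM at +P+N, fell to 0.289 ± 0.0186 CPM at +P-N (log2 fold change -1.05, SE 0.23, edgeR adjusted p = 0.0055) and rose to 2.38 ± 0.143 CPM at -P+N (log2 fold change 2.00, SE 0.14, edgeR adjusted p = 9.0e-06). In GP the gene had nearly the same level under both single starvations. Set directly against each other within a mutant, -P+N exceeded +P-N in nsp1 (log2 fold change 3.27, SE 0.19, edgeR adjusted p = 6.4e-09) and in nsp2 (log2 fold change 3.05, SE 0.12, edgeR adjusted p = 5.0e-08), with no overlap of libraries.

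D27 rose in nsp1 without phosphate, from 0.352 ± 0.0155 to 0.765 ± 0.0467 CPM (log2 fold change 1.11, SE 0.18, edgeR adjusted p = 2.0e-04), and -P+N exceeded +P-N as well (log2 fold change 0.73, SE 0.16, edgeR adjusted p = 0.002). Without nitrate D27 in nsp1 was at 0.466 ± 0.0209 CPM, above all replete nsp1 libraries, and did not pass the test (log2 fold change 0.36, SE 0.20, edgeR adjusted p = 0.15). In nsp2 it was at 0.354 ± 0.0559 CPM at +P+N, 0.535 ± 0.0434 CPM at +P-N (log2 fold change 0.57, SE 0.22, edgeR adjusted p = 0.062) and 0.524 ± 0.0977 CPM at -P+N (log2 fold change 0.56, SE 0.24, edgeR adjusted p = 0.1). Both nsp2 differences passed when all 14 groups were fitted together (edgeR adjusted p = 0.0025 and 0.0047). That fit also draws on the libraries that chose the genes, so it is no independent support.

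CCD7 went the other way between the single starvations in both mutants. It was lower under -P+N than under +P-N in nsp1 (log2 fold change -0.50, SE 0.13, edgeR adjusted p = 0.0051) and in nsp2 (log2 fold change -0.66, SE 0.12, edgeR adjusted p = 0.0019), with no overlap. Against the replete state, nsp2 was higher at +P-N, 1.32 ± 0.127 against 0.809 ± 0.235 CPM (log2 fold change 0.67, SE 0.21, edgeR adjusted p = 0.029). That call was lost without replicate 1 or 3 of nsp2 at +P+N (adjusted p = 0.077 and 0.092) and without replicate 1 or 2 at +P-N (0.082 and 0.078). In nsp1 CCD7 at -P+N was 0.79 ± 0.0122 against 1.01 ± 0.0581 CPM at +P+N, below all replete libraries (log2 fold change -0.36, SE 0.14, edgeR adjusted p = 0.054).

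CCD8 chr3Hg0246861 had 0 counts in 17 of the 24 mutant libraries. No mutant library carried it over the filter on low counts, so its calls within the mutants rest on few counts and are no independent support. In nsp1 the counts of 3, 11 and 4 at -P+N stood against 0 in all libraries at +P+N and +P-N, at least 1.68-fold and 2.09-fold higher with each such library set at 3 counts (edgeR adjusted p = 0.0065 and 0.0035). In nsp2 the counts of 5, 2 and 2 at -P+N against 0 at +P+N do not exceed a floor of 3 counts per library, and no fold is given. They passed the test narrowly (edgeR adjusted p = 0.048), and the call was lost with any 1 library of the 6 left out (adjusted p 0.072 to 0.10), without the filter (0.089), with the filter in at least 1 library (0.054), with DESeq2 (0.089), with the replicate number as a block (0.06) and with all groups in one fit (0.055).

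**Figure D3:**
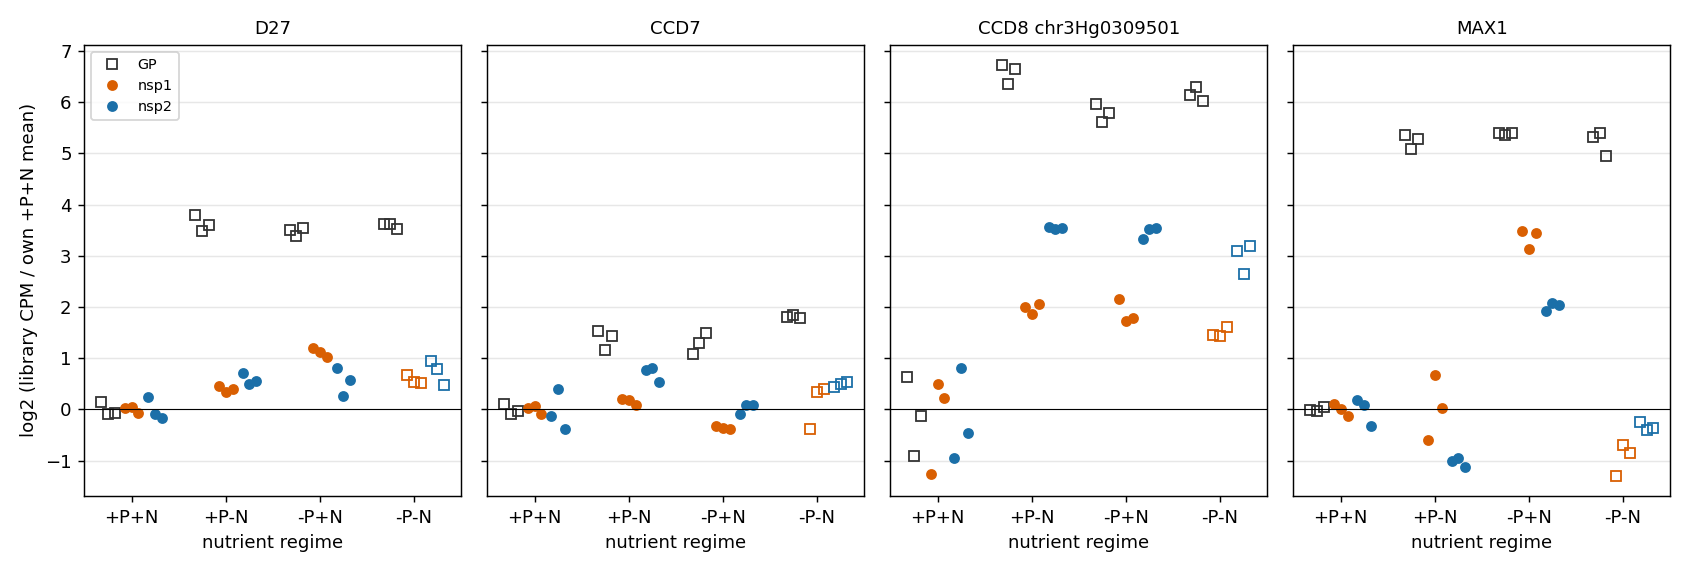
Log2 of each library's CPM over the mean of its own genotype at +P+N, by nutrient regime, for GP, nsp1 and nsp2. Filled circles are mutant libraries that were replete or lacked 1 nutrient, and open squares are libraries used to choose the genes. MAX1 in nsp1 and nsp2 lies above 0 at -P+N in all 6 libraries and at or below 0 at +P-N in all but nsp1 replicates 2 and 3.

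Across the single starvations, nsp1 at -P+N against +P-N had 3 of the 5 genes called higher and 1 lower, against 25.1% of all genes called higher, 20.8% called lower and 45.9% in all. The 3 include CCD8 chr3Hg0246861, which no mutant library carried over the filter. In nsp2 1 was called higher and 1 lower, against 23.7% called higher, 20.0% called lower and 43.8% in all. CCD8 chr3Hg0309501 had nearly the same level in both regimes in nsp1 (log2 fold change -0.06, SE 0.14, edgeR adjusted p = 0.78) and in nsp2 (log2 fold change -0.06, SE 0.11, edgeR adjusted p = 0.69).

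Without both nutrients the mutants were used to choose the genes, and their values are given as a description. MAX1 measured 0.191, 0.289 and 0.26 CPM in nsp1 and 0.498, 0.448 and 0.459 CPM in nsp2 at -P-N, 96.2 and 50.6 times below GP. These means were 19.6 and 5.09 times below the same mutant at -P+N. Against the same mutant at +P-N, MAX1 at -P-N was 2.06 times lower in nsp1 and 1.62 times higher in nsp2, each with no overlap. The choice of genes asked for a low level in a starved mutant, read here as a mutant at -P-N. CCD8 chr3Hg0309501 measured 0.79, 0.778 and 0.877 CPM in nsp1 and 0.924, 0.678 and 0.99 CPM in nsp2, below every library of the same mutant at +P-N or -P+N and above every one at +P+N.

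D27 at -P-N measured 0.558, 0.508 and 0.501 CPM in nsp1 and 0.683, 0.612 and 0.495 CPM in nsp2, 8 and 7.01 times below GP. CCD7 measured 0.776, 1.28 and 1.34 CPM in nsp1 and 1.09, 1.15 and 1.18 CPM in nsp2, 2.2 and 2.19 times below GP, with nsp1 replicate 1 below its 2 fellow libraries. In nsp1 replicate 1 the set of 1374 genes took 92.8% of the counts, against 77.4% and 76.9% in its fellows. Its chi-square per gene was 487 and 513 against them, where those 2 differed by 29.2. The CCD7 ratio for nsp2 is the smallest that any of the 5 genes had among the comparisons used to choose them. CCD8 chr3Hg0246861 had 0 counts in all 6 mutant libraries at -P-N, which puts it at least 21.8-fold below GP in nsp1 and at least 25.4-fold in nsp2, with each mutant library set at 3 counts.

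The second tested question was whether the mutants differ from each other. At +P+N 0 of the 5 genes were called between nsp2 and nsp1, against 11.9% of all genes; CCD8 chr3Hg0309501 alone had an unadjusted p under 0.05, and DESeq2 called 0. At +P-N 0 were called, against 1.84% of all genes; MAX1 alone had an unadjusted p under 0.05, and DESeq2 called 0. At -P+N 1 was called lower, against 5.12% of all genes called lower and 8.02% in either direction. Without nsp2 replicate 2 at +P+N, CCD7 and CCD8 chr3Hg0309501 were called lower in nsp2 (adjusted p = 0.04 and 0.018).

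The gene called was MAX1, lower in nsp2 than in nsp1 at -P+N by 2.03 times, with no overlap (log2 fold change -1.02, SE 0.10, edgeR adjusted p = 2.9e-04). Tests of a difference in response were chosen after the data were seen. The response of MAX1 to -P+N, relative to the same mutant at +P+N, was smaller in nsp2 than in nsp1 (difference in log2 response -1.33, SE 0.21, edgeR adjusted p = 9.6e-04, over 12 libraries), where 8.75% of all genes passed the same test. D27 at -P+N was also lower in all nsp2 libraries than in any nsp1 library and did not pass (log2 fold change -0.56, SE 0.17, edgeR adjusted p = 0.08). It passed when nsp2 replicate 1 was left out (adjusted p = 0.034). The response of CCD8 chr3Hg0309501 was larger in nsp2, from a lower replete level, and did not pass at +P-N (difference 1.51, SE 0.49, edgeR adjusted p = 0.098; 6.69% of all genes passed) or at -P+N (difference 1.51, SE 0.51, edgeR adjusted p = 0.086). It passed at both regimes without nsp1 replicate 1 at +P+N (adjusted p = 0.012 and 0.018) and without nsp2 replicate 2 at +P+N (0.019 and 0.011). Replicate 2 of nsp2 at +P+N also decided CCD7, whose response passed without it at +P-N (difference 0.81, adjusted p = 0.018) and at -P+N (0.66, adjusted p = 0.04). In that library the set of 1374 genes took 72.9% of the counts, against 87.0% and 87.1% in its fellow libraries. MAX1 at +P-N passed without nsp1 replicate 1 at +P-N (difference -1.40, adjusted p = 0.024) and not with it (difference -1.13, SE 0.39, edgeR adjusted p = 0.12).

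Overexpression in replete roots separated the lines. GP at +P+N, which had to be low for a gene to be chosen, is the wild type of this comparison, so MtNSP1ox is described without a test. The median log2 fold change of the 5 in MtNSP1ox against GP was 0.58, beside -0.01 over all genes. CCD7 measured 1.14, 1.15 and 1.08 CPM in MtNSP1ox (log2 fold change 0.66, SE 0.13), MAX1 0.873, 1.09 and 0.871 CPM (log2 fold change 0.58, SE 0.15) and CCD8 chr3Hg0309501 0.226, 0.56 and 0.408 CPM (log2 fold change 1.54, SE 0.42), each with all 3 libraries above GP. D27 measured 0.451, 0.439 and 0.617 CPM, also above all GP libraries (log2 fold change 0.54, SE 0.21). Against the same GP libraries, the nsp1 mutant at +P+N was also higher for CCD7 (log2 fold change 0.54). For CCD8 chr3Hg0309501 its mean was higher (log2 fold change 1.12), with overlap. It was lower for MAX1 (log2 fold change -0.40) and about equal for D27 (log2 fold change 0.06). CCD8 chr3Hg0246861 had 0 counts in all 3 MtNSP1ox libraries.

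MtNSP2ox, whose libraries were used to choose the genes, reached the starved wild-type range for some genes and not for others. MAX1 measured 22.7, 23 and 27.7 CPM in MtNSP2ox, 39 times the replete GP mean, and overlapped each starved GP group. CCD7 measured 1.73, 1.99 and 2.07 CPM, 2.72 times replete GP, and overlapped GP at +P-N and -P+N. D27 measured 2.54, 2.76 and 3.35 CPM, 8.34 times replete GP, below all 9 starved GP libraries.

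CCD8 chr3Hg0309501 measured 4.94, 4.69 and 6.27 CPM in MtNSP2ox, 38.1 times replete GP and 2.52 times below GP at +P-N. CCD8 chr3Hg0246861 measured 2.08, 2.38 and 3.11 CPM, overlapping GP at -P+N and 3.75 times above GP at +P-N. Set beside MtNSP1ox, MtNSP2ox was 25.9 times higher for MAX1, 13.3 for CCD8 chr3Hg0309501, 5.75 for D27, 1.72 for CCD7 and at least 89.5-fold for CCD8 chr3Hg0246861. The lines carry different promoters, so that promoter and gene cannot be told apart.

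The CCD8 genes did not keep a fixed ratio. The counts of CCD8 chr3Hg0246861 were 6.41%, 4.07% and 4.42% of those of CCD8 chr3Hg0309501 in the GP libraries at +P-N, 8.75%, 7.3% and 5.24% at -P-N, 43.5%, 38.7% and 44% at -P+N and 42.2%, 50.9% and 49.5% in MtNSP2ox at +P+N. The groups at -P+N and MtNSP2ox lay far above the others. In nsp1 and nsp2 at -P+N the values were 2.31%, 9.82% and 4% and 4.35%, 1.43% and 1.3%, on 11 counts of CCD8 chr3Hg0246861 or fewer. How reads that map to both genes were counted is not given in the sources used here.

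**Figure D4:**
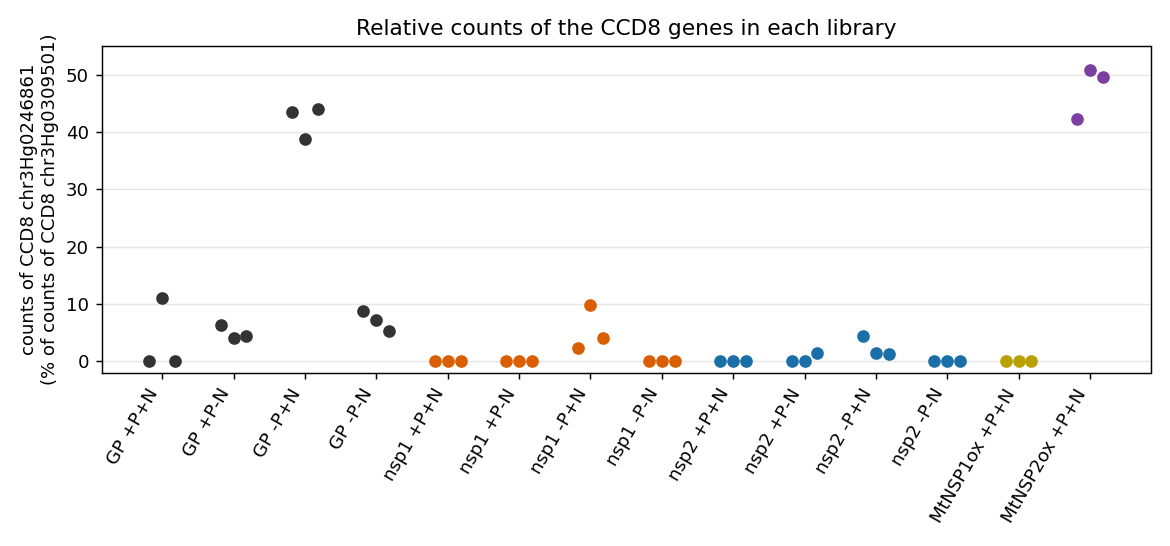
Counts of CCD8 chr3Hg0246861 as a percentage of the counts of CCD8 chr3Hg0309501 in each library, 3 points per group. GP at -P+N and MtNSP2ox lie between 38.7% and 50.9%, and the other groups at 11.1% or less, where the value of 11.1% is 1 count against 9.

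Across the 14 group means of log2(CPM + 0.1), the 5 genes followed one another with Pearson's r between 0.693 and 0.945 over the 10 pairs (median 0.876) and Spearman's rho between 0.336 and 0.890 (median 0.766). They were chosen for a shared pattern and measured in the same libraries, so these are descriptions. D27 and CCD8 chr3Hg0309501 were the closest pair, and CCD7 and MAX1 the least close.

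Among all other genes tested, more than 5 places from each of the 5 in the table, chr7Hg0805221 (mean r 0.928) and chr7Hg0765871 (mean r 0.909) had the pattern most like them over the 14 group means. Neither is given a name in the sources used here. The group mean of chr7Hg0805221 was 0.00203 CPM in GP at +P+N, 2.89 under +P-N, 4.27 under -P+N and 3.20 under -P-N, 0.175 in nsp1 and 0.0902 in nsp2 at -P-N, and 3.10 in MtNSP2ox. That of chr7Hg0765871 was 0.0534 CPM in GP at +P+N, 5.18 under +P-N, 11.8 under -P+N and 6.37 under -P-N, 0 in nsp1 and nsp2 at -P-N, and 2.65 in MtNSP2ox.

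CCD8 chr3Hg0246861 and MAX1 lie 2 places apart in the table, among identifiers that share their pattern. Of the 10 neighbours of CCD8 chr3Hg0246861, 7 passed the filter and all 7 had r over 0.9 with it across the group means, MAX1 included. Of the 10 neighbours of MAX1, 7 passed and 6 had r over 0.9. The windows of these genes overlap, so most of these identifiers are counted for both. By contrast 2 of 8 tested neighbours did so beside D27, 1 of 5 beside CCD8 chr3Hg0309501 and 0 of 6 beside CCD7. The identifier next to MAX1, chr3Hg0246891, held 0.320 to 0.513 of the counts of MAX1 in the 26 libraries in which both had at least 20 counts (median 0.407). In the same way chr7Hg0781101 held 0.248 to 0.767 of the counts of D27 (35 libraries, median 0.458). Next to CCD8 chr3Hg0309501, chr3Hg0309511 held 0.091 to 0.22 of its counts (18 libraries, median 0.153).

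Further along the same stretch, chr3Hg0246831 had group means of 0.219 CPM in GP at +P+N, 16.3 under +P-N, 25.7 under -P+N and 14.7 under -P-N. In the mutants it was at 1.15 CPM in nsp1 and 0.438 in nsp2 at -P+N, and at 0.0185 and 0.0130 CPM at +P-N. The next identifier, chr3Hg0246841, held 0.469 to 0.652 of its counts (median 0.560). Whether such neighbours are separate genes or pieces of one transcript was not tested.

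**Figure D5:**
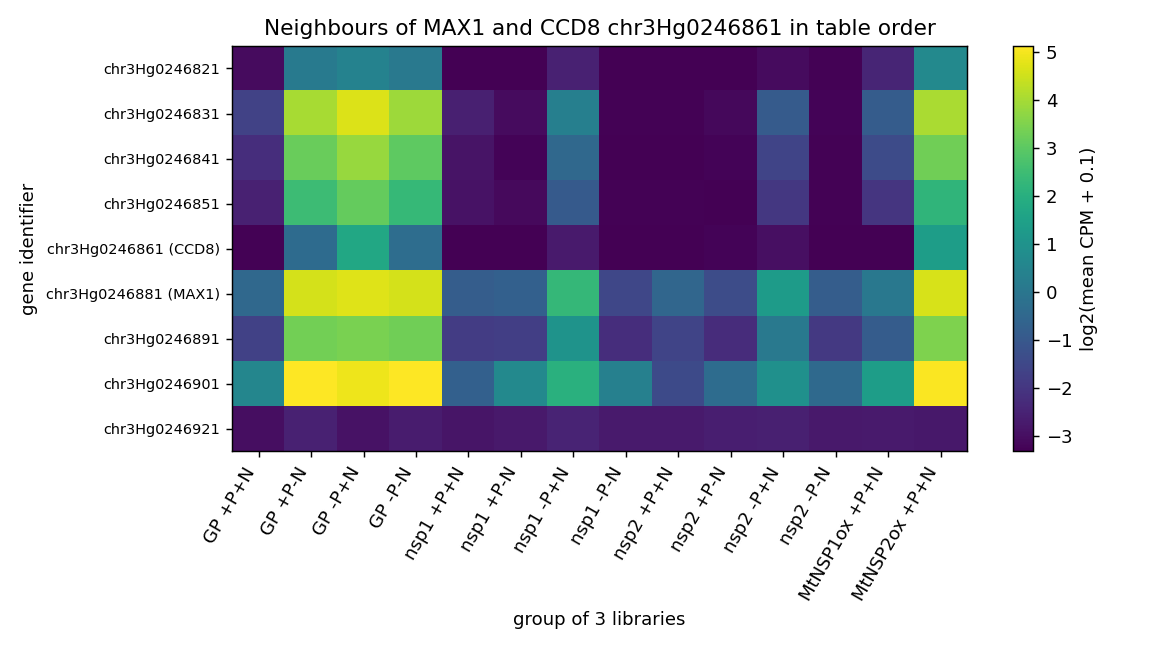
Mean level of the identifiers around CCD8 chr3Hg0246861 and MAX1 in table order (rows; those that passed the filter), as log2(mean CPM + 0.1) in the 14 groups (columns). All rows but the last are brightest in starved GP and MtNSP2ox, and the rows from chr3Hg0246831 to MAX1's neighbours brighten at -P+N in nsp1 and nsp2.

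The carotenoid isomerase gene CRTISO (chr1Hg0012421), which acts upstream in carotenoid synthesis, was chosen with the 5 and had smaller ratios of starved to replete means in GP than any of them. It measured 3.06, 2.86 and 3.08 CPM in GP at +P+N, 6.53, 5.31 and 5.53 under +P-N, 4.4, 3.87 and 4.55 under -P+N and 6.39, 5.89 and 5.47 under -P-N. The starved means were 1.93, 1.43 and 1.97 times the replete mean. The mutants lay below GP, with no test, in nsp1 at +P-N (log2 fold change -0.97, SE 0.09) and -P+N (log2 fold change -0.98, SE 0.10), and in nsp2 at +P-N (log2 fold change -0.97, SE 0.09) and -P+N (log2 fold change -1.13, SE 0.08). Within the mutants it was lower under -P+N than under +P-N, as CCD7 was (log2 fold change -0.47 in nsp1 and -0.60 in nsp2, edgeR adjusted p = 0.0019 and 1.4e-04).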

How the data were processed

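RNA from whole barley roots was poly A-enriched and sequenced as paired-end reads. The authors aligned reads by STAR and used featureCounts to obtain raw counts per gene, which they deposited as whole numbers without normalization. The tool versions, the use of strand and the treatment of multiply mapped reads are not given in the sources used here. Samples were grouped by the genotype and regime in their labels. The study's Medicago truncatula libraries were not used here.

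From the deposited counts, genes were kept that reached 0.0833 CPM (10 counts in the median library) in at least 3 of 42 libraries, which left 46523. CPM values are TMM-normalized. For each of 16 comparisons the 6 libraries concerned entered a separate edgeR quasi-likelihood fit. Benjamini-Hochberg adjustment ran over the 46523 genes, and an adjusted p under 0.05 was called. The 7 comparisons with GP give log2 fold changes and SE only, and the other 9 are tests. The standard error is the size of the log2 fold change divided by the square root of F. Differences of response between the mutants were fitted in the same way over 12 libraries, and were chosen after the data were seen. A group with 0 counts was set at 3 counts per library, and 1 to 3 counts were given an exact 95% interval. Intervals and floors cover counting error only. Replicate pairs differed beyond sampling noise (chi-square per gene at least 7.20), so all were kept as separate libraries.

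The 5 genes, the neighbours, the most similar genes and CRTISO were taken by rule, with earlier results of these data known. The genes named are the 5, CRTISO, those among the 5 neighbours on each side on which a result turns, and the 2 with the highest mean r. Correlation of same-numbered replicates exceeded 0.1 in all 3 pairs only for nsp2 against GP at +P-N (0.189, 0.437 and 0.209), a comparison given without a test because GP libraries chose the genes.

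Alternatives were DESeq2, a filter in at least 1 library, no filter, the replicate block, RLE size factors, all 14 groups in one fit, removal of 1374 genes that co-vary inversely with the TMM factor (r over 0.8 with its negative log2), a pseudocount of 1 and each library left out (96 fits). On simulated data with 200 changed genes among 46523, the test recovered 85% of 2-fold changes for nsp1 at -P+N against +P+N and 74% for nsp2 against nsp1 at +P+N, with 0 of wrong sign. Of its calls 9.36% and 10.9% were unchanged genes, and 6.81% and 13.7% for nsp1 and MtNSP1ox against GP at +P+N. These shares lie above the threshold of 0.05. The changed genes were expected at 20 counts or more in the median library, so the recovery does not extend to lower counts. Far fewer genes were changed than were called in the data. Software was R 4.3.3, edgeR 4.0.16, limma 3.58.1, DESeq2 1.42.0, Python 3.11.15 and matplotlib 3.10.9.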

Additional observations from a re-analysis of the deposited data

Results flagged for a closer look

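The response of MAX1 to missing phosphate differed between the mutants. From +P+N to -P+N it rose by 3.36 on the log2 scale in nsp1 and by 2.00 in nsp2, and the test of the difference itself passed (-1.33, SE 0.21, edgeR adjusted p = 9.6e-04, nsp2 minus nsp1). That test was chosen after the data were seen. All 3 nsp1 libraries at -P+N (5.28, 4.08 and 5.14 CPM) lay above all 3 nsp2 libraries (2.22, 2.49 and 2.44 CPM), and the difference ranged from -1.49 to -1.27 with any 1 of the 12 libraries left out. The share of counts on the genes that co-vary with the normalisation factor was 83.2% to 85.2% in nsp1 and 66.9% to 80.8% in nsp2 at -P+N. At +P+N it was 80.8% to 84.3% in nsp1 and 72.9% to 87.1% in nsp2. Computed without those genes the difference was -1.35 (edgeR adjusted p = 4.8e-04).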

How the results depend on the processing

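With 3 libraries per group, small differences are not resolved, and CCD8 chr3Hg0246861 in the mutants is limited by counts. CCD8 chr3Hg0309501 was also low at +P+N, with 10 to 38 counts per library in nsp1 and 4 to 20 in nsp2. The median over the 5 genes of the log2 ratio of GP at -P-N to +P+N was 4.88 with CCD8 chr3Hg0246861, which had 1 count in GP at +P+N, set there at 3 counts per library. Without the co-varying genes the median was 5.24, and with 1 library left out it ranged from 4.72 to 5.11. The median similarity of pattern was 0.876 by Pearson's r and 0.766 by Spearman's rho. With all 14 groups in one fit, the genes called were 1 in place of 0 for nsp2 against nsp1 at +P+N and 2 in place of 1 at -P+N. That fit also takes in the libraries that chose the genes. With 1 library left out, the genes called ranged from 0 to 2 for nsp2 against nsp1 at +P+N and 1 to 2 at -P+N. For the difference of responses they ranged from 0 to 2 at +P-N and 1 to 3 at -P+N. The causes were not tested. Comparisons with GP share libraries with the choice of genes, so their calls are not listed here. The totals below include them, and there they are no independent test.

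Of differences outside leave-one-out, 538 kept their direction and call, 5 lost a call (all CCD8 chr3Hg0246861 in nsp2 at -P+N against +P+N), 7 gained one and 1 changed sign, CCD7 in nsp2 at -P+N against +P+N without the co-varying genes (-0.014). With a library left out, 485 were kept, 20 lost a call, 11 gained one and 18 changed sign, all 18 among differences that were not called. The log2 differences that changed sign ranged, for nsp2 against GP at +P+N, over -0.071 to 0.15 for D27, -0.022 to 0.39 for CCD7, -0.94 to 0.16 for CCD8 chr3Hg0309501 and -0.17 to 0.064 for MAX1. They ranged over -0.31 to 0.37 for MAX1 in nsp1 at +P-N against +P+N and -0.16 to 0.28 for CCD7 in nsp2 at -P+N against +P+N. Between -P+N and +P-N they ranged over -0.22 to 0.017 for CCD8 chr3Hg0309501 in nsp1, -0.15 to 0.13 for D27 in nsp2 and -0.099 to 0.0094 for CCD8 chr3Hg0309501 in nsp2. D27 in nsp2 against nsp1 at +P+N ranged over -0.14 to 0.064.

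With the replicate number as a block, CCD8 chr3Hg0246861 in nsp2 at -P+N against +P+N was no longer called (edgeR adjusted p = 0.06), which left 2 genes called in place of 3 there, and the block changed no other call. Same-numbered libraries share only a number in the 15 other comparisons, where the lowest correlation of a pair was between -0.299 and 0.0909.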
